A study of Mus musculus with 6 samples.

Results

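Histone deacetylases remove acetyl groups from lysines of histones and other proteins. The transcripts of 10 of these genes, Hdac1, Hdac2, Hdac3, Hdac4, Hdac5, Hdac6, Hdac7, Hdac8, Hdac9 and Hdac11, were followed in primary cell cultures of mouse fetal cortex. They were taken by name from the 43346 genes of the count table, and 10 of 10 were found by their Ensembl identifiers. The cultures came from cortex at gestational day 15.5 and received either vehicle (DMSO, spelled DSMO in the labels) or 1 mM 10HDA, a hydroxylated fatty acid of royal jelly that has been described as a deacetylase inhibitor. Each treatment had 3 RNA-seq libraries, and cultures 1, 3 and 4 each gave 1 library of each treatment. The labels name the strain as Cyp19-EGFP and the genotype as SRY+ for vehicle and 10HDA alike, whereas the methods of the RNA-seq experiment give C57BL/6 as the source of the embryos. In Cyp19-EGFP mice a bacterial artificial chromosome places EGFP under control of the aromatase gene, and both treatments shared this transgene if the labels hold. The duration of the treatment was not given in the sources used here.

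The family falls into classes. Class I enzymes (Hdac1, Hdac2, Hdac3 and Hdac8) are mainly nuclear, and Hdac1, Hdac2 and Hdac3 act inside corepressor complexes such as Sin3, NuRD, CoREST and NCoR/SMRT. In the developing cortex Hdac1 is known from dividing progenitors and glia and Hdac2 from neurons. Class IIa enzymes (Hdac4, Hdac5, Hdac7 and Hdac9) have little catalytic activity of their own, bind MEF2 transcription factors and leave the nucleus when calcium-dependent kinases phosphorylate them and 14-3-3 proteins hold them in the cytoplasm. Hdac6, of class IIb, is a cytoplasmic enzyme that deacetylates tubulin, and Hdac11 is the only class IV enzyme. An inhibitor acts on the proteins, so transcript counts measure neither enzyme activity nor acetylation.

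The 6 libraries held 9144736 to 13367194 counts on genes, so 3 counts corresponded to 0.224 to 0.328 CPM, the usual measure of counts relative to the total of a library. Levels below are CPM after scaling by TMM, a factor per library that balances most genes, and are given in the order of cultures 1, 3 and 4. All libraries carry a male label, but 4 Y-linked genes in both libraries of culture 1 summed to 9.07 and 9.30 CPM, where the libraries of cultures 3 and 4 had 97.8 to 136 CPM. Xist, the transcript of the inactive X, had 1032 and 1444 CPM in culture 1 and 403 to 843 CPM elsewhere. This touches the X-linked members Hdac6 and Hdac8, which are therefore given with and without culture 1. As Xist was counted in cultures 3 and 4 too, leaving out culture 1 does not remove it. Of the cell markers, 12 neuronal genes summed to 8674 to 9285 CPM with vehicle and 7346 to 8313 CPM with 10HDA, and 12 astrocyte genes to 1295 to 1577 CPM and 959 to 1194 CPM. The neuronal label was thus met by its markers, while the cultures also held glial transcripts. The summed level of 7 microglial genes was at most 1.23 CPM in every library. In these bulk libraries, fewer cells of a type and less RNA per cell cannot be told apart.

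Levels were compared between members per length, as CPM per kb of the exons that the count table lists. In vehicle libraries Hdac2 stood first, with 47.8 ± 3.50 CPM per kb (SD, n = 3), and made up 30.1% of the summed level of the 10 genes. Hdac3 followed with 28.0 ± 2.84 CPM per kb, and its 3 values lay below all those of Hdac2. Hdac6 with 20.2 ± 1.77 CPM per kb and Hdac5 with 19.9 ± 0.459 CPM per kb overlapped, and they exchanged places in the 10HDA libraries. Below them Hdac11 stood at 15.0 ± 1.34 CPM per kb, under every value of Hdac5 and above every value of Hdac7. Hdac7 (9.08 ± 0.749), Hdac9 (7.52 ± 1.81) and Hdac1 (6.55 ± 0.921 CPM per kb) overlapped each with the next. Hdac4 with 3.70 ± 0.278 CPM per kb and Hdac8 with 1.26 ± 0.201 CPM per kb were last and stood apart. The other 8 places were the same in 10HDA libraries. The place of Hdac9 rests on 4422 bases of exons in the count table, 30.2% of the 14665 exon bases that GENCODE M21 lists for it, and that of Hdac7 on 81.9%. For the other 8 members the share was at least 97.2%.

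Summed by class, class I genes took 52.6% ± 2.53 of the family's level per length in vehicle libraries and 52.0% ± 0.541 in 10HDA libraries (SD over 3). The 4 class IIa genes summed to 38.1, 39.2 and 43.3 CPM per kb with vehicle and to 46.3, 44.5 and 45.8 CPM per kb with 10HDA. All 3 values with 10HDA were above all 3 with vehicle. Taken singly, only Hdac5 of these 4 genes did so, while Hdac4, Hdac7 and Hdac9 overlapped. Of single genes tested, 5.96% did not overlap with 10HDA higher, and no such share was computed for sums. The sum over all 10 genes was 152 to 165 CPM per kb with vehicle and 158 to 163 CPM per kb with 10HDA, and these ranges overlap.

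**Figure D1:**
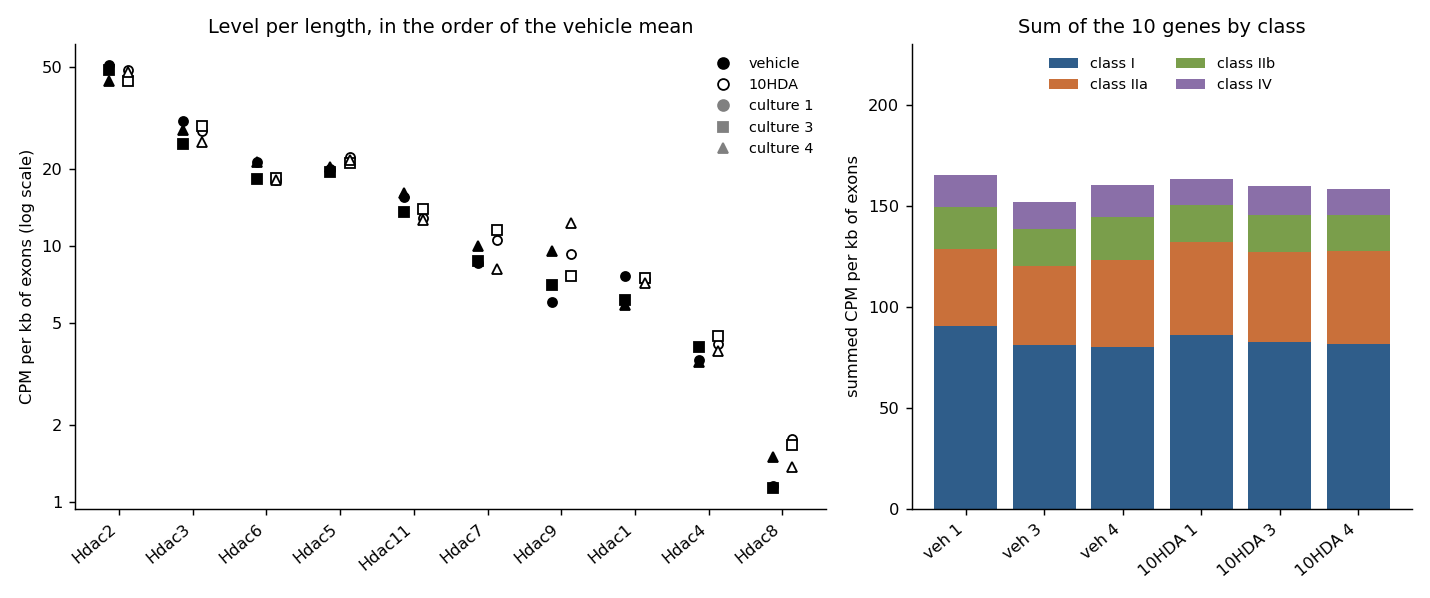
Left, CPM per kb of exons on a log scale for each member and library, ordered by the vehicle mean, with filled points for vehicle, open points for 10HDA and shapes for cultures. Right, the summed CPM per kb of each class, stacked for each library from 0. Hdac2 is highest at 44.0 to 50.8 CPM per kb with vehicle, Hdac8 lowest, and the class IIa segment is taller in the 3 10HDA libraries than in the 3 vehicle libraries.

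The comparison of 10HDA with vehicle asks whether the treatment was accompanied by other levels of the deacetylase transcripts. Of the 10 members, 9 passed the filter of 10 CPM in at least 3 libraries, and Hdac8 did not. With treatment as the only term, 0 of the 9 were past an adjusted p of 0.1 by edgeR's quasi-likelihood test (below, edgeR QL, adjusted over 10520 genes), and 0 had an unadjusted p under 0.05. Of all genes tested, 0.627% were past the adjusted threshold, and 1059 of the 10520 had an unadjusted p under 0.05. DESeq2 and limma-voom also called 0 of the 9. With culture as a block, 1 of the 9, Hdac9, was called and was higher, where 8.98% of all genes were called and 3.91% were called higher. With the block and without culture 1, 0 of 9 were called, where 8.49% of all genes were. The log2 fold changes of the 9 genes ran from -0.19 to 0.36 with a median of 0.12, against a median of -0.01 over all genes tested. Genes Hdac4, Hdac5 and Hdac9 were higher with 10HDA in 3 of 3 cultures, 3 of 9 members where 18.6% of all genes were, and 0 members were lower in 3 of 3 cultures, where 21% of all genes were. When libraries were scaled by their size alone, the median over all genes was 0.07 and that over the 9 members 0.20.

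**Figure D2:**
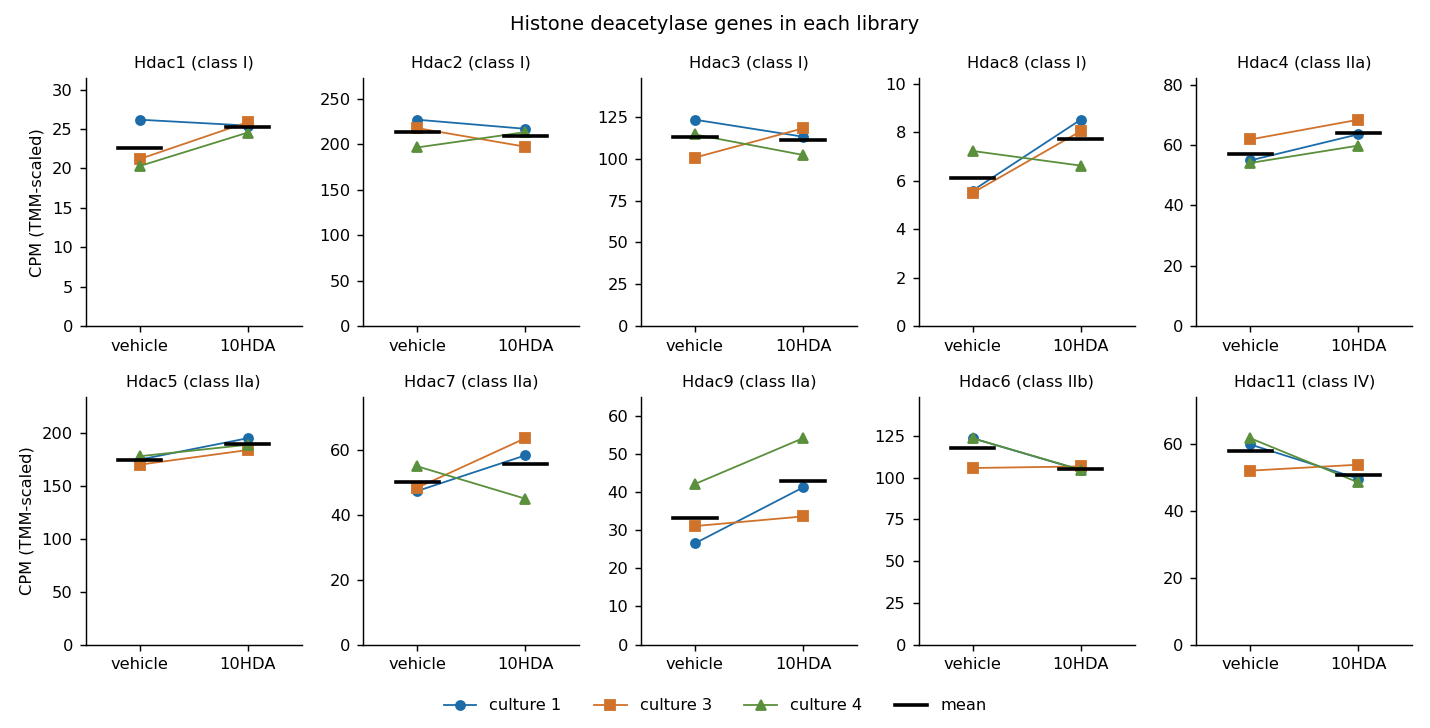
TMM-scaled CPM of each member in the vehicle and 10HDA libraries, with lines joining the 2 libraries of a culture and black bars for the mean of 3 libraries. Every vertical axis starts at 0 and has its own scale. Hdac5 is the only member among those tested whose groups do not overlap, and Hdac9 is higher with 10HDA in each culture while its groups overlap.

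**Figure D3:**
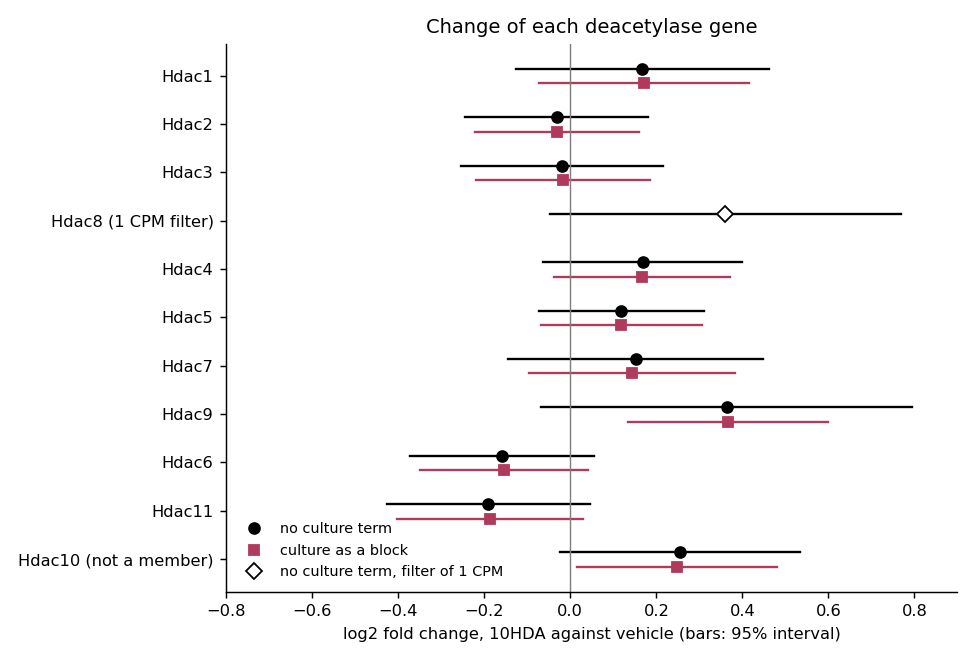
Log2 fold change of 10HDA against vehicle for each member and for Hdac10, with its 95% interval, from edgeR without a culture term (black) and with culture as a block (red). Hdac8 is shown from the fit with a filter of 1 CPM. All black intervals include 0, and with the block the intervals of Hdac9 and of Hdac10 do not.

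Among class I genes, Hdac2 (ENSMUSG00000019777, GRCm38 chromosome 10, 36974544 to 37001889, plus strand) had 227, 218 and 197 CPM with vehicle and 217, 198 and 214 CPM with 10HDA. The groups overlap and the direction differs between cultures. Its log2 fold change was -0.03 (SE 0.10, 95% interval -0.24 to 0.18, edgeR QL adjusted p = 0.926), and 0.04 when libraries were scaled by their size alone. Hdac2 was counted from 1905 to 2819 times per library, so its interval is among the narrow ones of the family.

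Hdac1 (ENSMUSG00000028800, GRCm38 chromosome 4, 129516104 to 129542713, minus strand) had 26.2, 21.2 and 20.3 CPM with vehicle and 25.4, 25.9 and 24.6 CPM with 10HDA. It was higher with 10HDA in cultures 3 and 4 and about level in culture 1, where its log2 ratio was -0.04. The log2 fold change was 0.17 (SE 0.13, 95% interval -0.13 to 0.46, edgeR QL adjusted p = 0.678). Without culture 1 it was 0.30, and it was not called there either (edgeR QL adjusted p = 0.817, and 0.253 with the block).

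The counts of Hdac1 are uncertain because the mouse genome holds a near-identical processed copy, Gm10093, in a single exon at GRCm38 chromosome 17, 78491582 to 78493025, plus strand. Its 1444 bases align to bases 85 to 1528 of the 2038-base Hdac1 transcript with 9 mismatches, an identity of 99.4%. Of the 50-base stretches of the protein-coding Hdac1 transcripts, the length of the reads, 58.7% also occur in other genes and 56.4% in Gm10093. Below is the stretch where the mismatches lie closest together, shown because only there could a read tell the genes apart by several bases. It is in exon 5 of Hdac1, GRCm38 chr4:129522975-129523064 on the minus strand, bases 477 to 566 of the transcript, and in the copy at chr17:78491974-78492063 on the plus strand, 5′ to 3′ from the GENCODE M21 transcripts. Capitals mark the 6 bases that differ, which are C492T, T525A, A544G, C549T, C556T and T566C, with the base of Hdac1 first and positions counted from 1 at the 5′ end of its transcript.
Hdac1: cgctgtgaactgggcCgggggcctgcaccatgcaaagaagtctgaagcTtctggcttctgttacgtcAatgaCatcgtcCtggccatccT
Gm10093: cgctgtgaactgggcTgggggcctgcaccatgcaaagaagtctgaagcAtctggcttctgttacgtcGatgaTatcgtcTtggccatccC

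Gm10093 was listed with 26.4, 21.2 and 24.0 CPM with vehicle and 20.7, 24.2 and 26.4 CPM with 10HDA. These levels are as high as those of Hdac1 itself, and both genes were higher with 10HDA in cultures 3 and 4. In culture 1 Gm10093 was lower, with a log2 ratio of -0.35, while Hdac1 was about level at -0.04. The count table lists 1977 bases of exons for Gm10093, 137% of its 1444 bases in GENCODE M21. Its counts, also in the sum below, may thus come in part from outside the aligned copy. How reads that align to both genes were counted was not given in the sources used here. Added together, Hdac1 and Gm10093 had 52.6, 42.4 and 44.3 CPM with vehicle and 46.2, 50.1 and 50.9 CPM with 10HDA, with a log2 fold change of 0.08 (SE 0.11, edgeR QL adjusted p = 0.812). The sum was chosen after the data were seen. The summed values overlap between treatments, and the low place of Hdac1 in the order of levels holds for the counts as deposited.

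**Figure D4:**
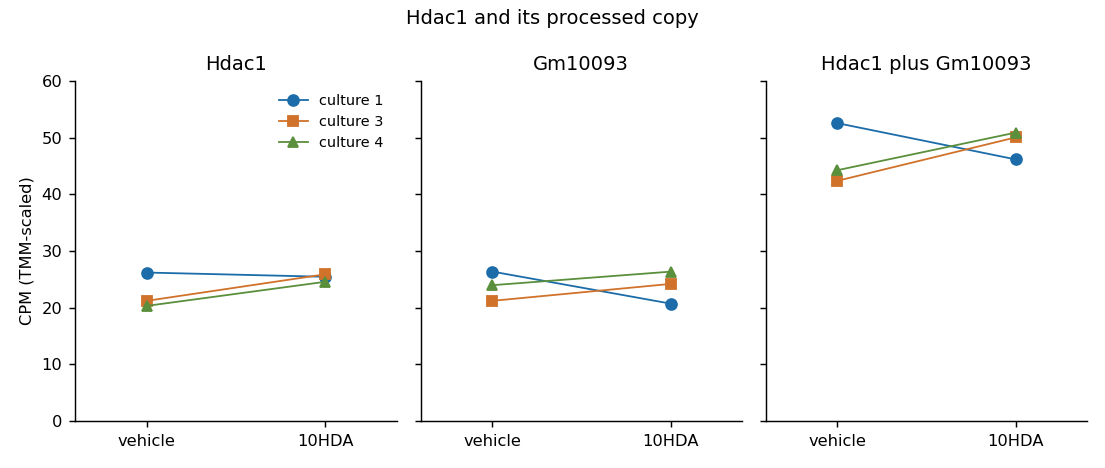
TMM-scaled CPM of Hdac1, of its processed copy Gm10093 and of both added together, by treatment, with lines joining the 2 libraries of a culture. Hdac1 lies at 20.3 to 26.2 CPM and Gm10093 at 20.7 to 26.4 CPM, and the sums of the treatments overlap.

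Hdac3, the enzyme of the NCoR/SMRT complexes (ENSMUSG00000024454), had 123, 101 and 115 CPM with vehicle and 113, 118 and 102 CPM with 10HDA. It was lower with 10HDA in cultures 1 and 4 and higher in culture 3, so that no common direction was seen. The log2 fold change was -0.02 (SE 0.11, 95% interval -0.25 to 0.22, edgeR QL adjusted p = 0.960), and 0.06 with library size alone and 0.01 with upper quartile scaling.

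Hdac8 (ENSMUSG00000067567, GRCm38 chromosome X, 102284639 to 102505359, minus strand) was the sparsest member, with 59 to 109 counts per library. It had 5.59, 5.49 and 7.22 CPM with vehicle and 8.51, 8.04 and 6.62 CPM with 10HDA. It was higher with 10HDA in cultures 1 and 3 and lower in culture 4, and the groups overlap. With a filter of 1 CPM in 3 libraries, which admitted 15311 genes and called 0.509% of them, its log2 fold change was 0.36 (SE 0.19, 95% interval -0.05 to 0.77, edgeR QL adjusted p = 0.519). Apart from culture 1, the log2 ratios of 10HDA to vehicle were 0.55 in culture 3 and -0.13 in culture 4.

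The class IIa genes were higher with 10HDA in 4 of 4 cases by their log2 fold changes, which were 0.12 to 0.36, and 0 of 4 were called without a culture term. Of all 10520 genes tested, 5034 had higher and 5486 lower values. Hdac5 (ENSMUSG00000008855, GRCm38 chromosome 11, 102194432 to 102230166, minus strand), counted 1688 to 2499 times per library, had 175, 170.4 and 178 CPM with vehicle and 195, 184 and 189 CPM with 10HDA. Its groups do not overlap, which held for 13.4% of all genes tested, 5.96% with 10HDA higher. The difference was small, with a log2 fold change of 0.12 (SE 0.09, 95% interval -0.07 to 0.31, edgeR QL adjusted p = 0.651), or 1.09-fold. With library size alone, which moved the median of all genes to 0.07, it was 0.20 (QL unadjusted p = 0.0439, QL adjusted p = 0.431).

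Hdac9 (ENSMUSG00000004698, GRCm38 chromosome 12, 34047580 to 34917095, minus strand) had 26.6, 31.1 and 42.1 CPM with vehicle and 41.2, 33.6 and 54.2 CPM with 10HDA. It was higher with 10HDA in each culture, by log2 ratios of 0.63, 0.11 and 0.36, but the cultures differed from each other as much as the treatments did and the groups overlap. Without a culture term the log2 fold change was 0.36 (SE 0.20, 95% interval -0.07 to 0.79, edgeR QL adjusted p = 0.544). With culture as a block it was 0.37 (SE 0.11, 95% interval 0.13 to 0.60) and past the threshold (QL adjusted p = 0.0547). Without culture 1 the blocked value was 0.26 and no longer called (QL adjusted p = 0.276). Hdac9 also gives rise to a shorter protein without the catalytic domain, known as MITR or HDRP, and counts per gene do not separate the 2 forms.

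Hdac4, whose protein is retained in the cytoplasm of many neurons (ENSMUSG00000026313, GRCm38 chromosome 1, 91928779 to 92195699, minus strand), had 54.9, 61.8 and 54.0 CPM with vehicle and 63.5, 68.4 and 59.8 CPM with 10HDA. The log2 ratios were 0.21, 0.15 and 0.15 in the 3 cultures, all in 1 direction and of similar size, while the groups overlap. The log2 fold change was 0.17 (SE 0.11, 95% interval -0.06 to 0.40, edgeR QL adjusted p = 0.599). Hdac7, best known from endothelium and thymocytes (ENSMUSG00000022475, GRCm38 chromosome 15, 97792664 to 97844502, minus strand), had 47.3, 48.3 and 55.0 CPM with vehicle and 58.3, 63.6 and 45.0 CPM with 10HDA. Culture 4 went against the other cultures, with a log2 ratio of -0.29 against 0.30 and 0.40. The log2 fold change of Hdac7 was 0.15 (SE 0.13, 95% interval -0.14 to 0.45, QL adjusted p = 0.702), and it ran from 0.02 to 0.36 over the alternatives.

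Hdac6 and Hdac11 were the members with lower values in 10HDA libraries beyond a few hundredths of a log2 unit, and neither was called. Hdac6 (ENSMUSG00000031161, GRCm38 chromosome X, 7930120 to 7947889, minus strand) had 124, 106 and 124 CPM with vehicle and 105, 107 and 105 CPM with 10HDA. The 3 values with 10HDA lay within 3 CPM of each other, at the level of the lowest vehicle library, that of culture 3. The log2 fold change was -0.16 (SE 0.10, 95% interval -0.37 to 0.06, edgeR QL adjusted p = 0.590), and -0.10 without culture 1 (QL adjusted p = 0.907) and -0.08 with library size alone. Hdac11 (ENSMUSG00000034245, GRCm38 chromosome 6, 91156665 to 91174692, plus strand) had 59.8, 52.0 and 61.7 CPM with vehicle and 49.6, 53.8 and 48.4 CPM with 10HDA. It repeated the order of Hdac6 over the cultures, lower with 10HDA in cultures 1 and 4 and about level in culture 3. Its log2 fold change was -0.19 (SE 0.11, 95% interval -0.43 to 0.05, QL adjusted p = 0.558), and it was -0.11 with library size alone and -0.31 without culture 3. Per length, the ratio of Hdac11 to Hdac6 was 0.742 ± 0.0113 in vehicle and 0.725 ± 0.0320 in 10HDA libraries (SD over 3). It was the narrowest, relative to its mean, of the pairs examined. In vehicle libraries the others were Hdac2 to Hdac1 (7.36 ± 0.627), Hdac5 to Hdac9 (2.74 ± 0.595) and Hdac9 to Hdac4 (2.05 ± 0.576). These pairs were not among the comparisons set beforehand. Ratios of all further pairs of members were not computed, so the rank holds only among those listed.

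Overlap on the opposite strand was examined as well. Gm44002 covers 19.8% of the 50-base stretches of Hdac11 in antisense and is not a row of the count table, and Gm14573, antisense to Hdac11, and Gm26720, antisense to Hdac4, were listed at 0 counts in every library. The library kit keeps the strand, but the strand setting of the counting was not given in the sources used here. Hdac10, the class IIb relative outside the list of members, had 29.5, 29.2 and 28.7 CPM with vehicle and 36.4, 38.3 and 29.3 CPM with 10HDA. Its log2 fold change was 0.25 (SE 0.13, edgeR QL adjusted p = 0.529, and 0.216 with the block), close in size to those of the class IIa genes.

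RefSeq promoter windows (build GRCm38.p6, 250 bases before to 50 after a start site) were found for 8 of the 10 members, 12 windows in all, and Hdac1 and Hdac3 had no entry. The 3 windows below are shown because the member with the highest level and the member with the largest difference between treatments stand at opposite ends in CpG content. The windows were thus picked by their values. Whether CpG content goes with the level or with the difference between treatments was not tested. Capitals mark each CG. The window of Hdac2, chr10:36974294-36974593 on the plus strand, held 36 CpGs, more than 93.8% of the 32851 windows of the reference table. The windows of Hdac9, chr12:34917046-34917345 for its first and chr12:34528840-34529139 for its second start on the minus strand, held 0 and 3 CpGs.
Hdac2: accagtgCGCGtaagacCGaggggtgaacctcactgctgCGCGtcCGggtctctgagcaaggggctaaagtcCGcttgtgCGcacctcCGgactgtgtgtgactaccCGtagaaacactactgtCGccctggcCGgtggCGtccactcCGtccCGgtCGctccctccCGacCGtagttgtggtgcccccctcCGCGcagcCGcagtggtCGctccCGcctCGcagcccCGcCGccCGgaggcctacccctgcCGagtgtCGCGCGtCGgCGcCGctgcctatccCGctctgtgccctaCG
Hdac9 first start: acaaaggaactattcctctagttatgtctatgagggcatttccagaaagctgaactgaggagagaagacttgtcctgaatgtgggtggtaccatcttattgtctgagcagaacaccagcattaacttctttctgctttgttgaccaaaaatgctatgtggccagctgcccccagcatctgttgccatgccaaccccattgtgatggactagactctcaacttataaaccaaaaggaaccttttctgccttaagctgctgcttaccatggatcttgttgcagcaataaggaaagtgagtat
Hdac9 second start: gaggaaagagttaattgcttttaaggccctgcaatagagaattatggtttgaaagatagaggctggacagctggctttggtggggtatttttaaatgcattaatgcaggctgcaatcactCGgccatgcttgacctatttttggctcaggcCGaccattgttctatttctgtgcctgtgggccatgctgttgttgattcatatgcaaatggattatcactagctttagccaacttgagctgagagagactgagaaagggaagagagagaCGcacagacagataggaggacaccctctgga

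The median window of the table held 7 CpGs. Hdac4 (32), Hdac11 (22), Hdac6 (20) and Hdac5 (18 CpGs) were above it, Hdac8 (6 CpGs) was below it, and the 4 windows of Hdac7 held 5 to 35 CpGs. Both windows of Hdac9 were also low in G and C, with 44.0% and 45.3% against a median of 52.7%. Among motifs searched on both strands, GGGCGG (the GC box) was in 6 of the 12 windows and in 35.7% of all windows, CCAAT in 5 of 12 and 37.4%, TGACTCA (AP-1) in 1 of 12 and 5.20%, and TGACNNNGC (antioxidant response element) in 3 of 12 and 12.4%. TGACGTCA (CRE) and the estrogen response element in its palindromic form were in 0 of 12 windows and in 1.79% and 0.0700% of all windows. These matches describe letters in the windows and no binding was measured.

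**Figure D5:**
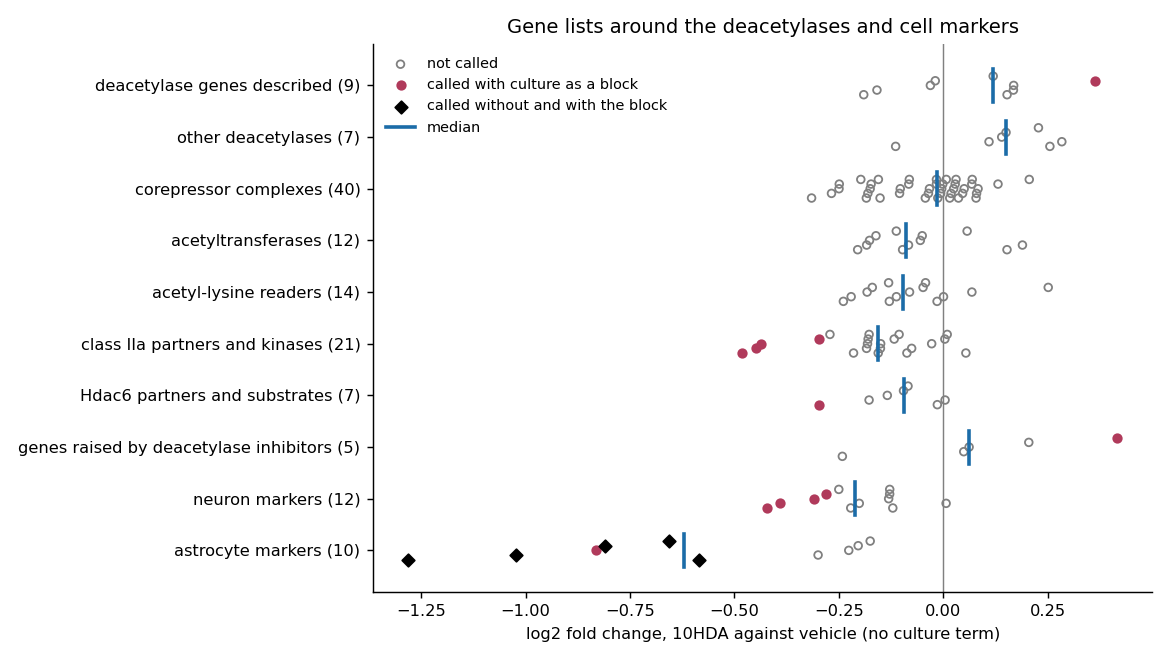
Log2 fold change, without a culture term, of each tested gene in the deacetylase family, in 7 lists around it and in 2 lists of cell markers, with the number tested in parentheses and a blue bar at the median. Black diamonds are called at an adjusted p under 0.1 without and with culture as a block, and red points with the block only. The 4 red points among class IIa partners lie at -0.48 to -0.30, while the single red point of the family, Hdac9, lies at 0.36.

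Genes that work with the deacetylases were read from 7 lists. Without a culture term 0 genes of any of these lists were called, where 0.627% of all genes were. The unadjusted p was under 0.05 for 4 of 21 class IIa partners and kinases and 1 of 7 Hdac6 partners. It was also under 0.05 for 1 of 5 genes of the list known to be raised by deacetylase inhibitors. Over all genes, this held for 1059 of the 10520 tested. By direction, 5034 of all genes tested had higher and 5486 lower values, the background for the counts of direction in each list. Among the other deacetylases, 7 of 8 were tested, 6 with higher values and a median log2 fold change of 0.15. The smallest p in that list was that of Sirt1, a nuclear NAD-dependent deacetylase, with a log2 fold change of 0.28 (SE 0.14, edgeR QL adjusted p = 0.519). Hdac10, Sirt4 and Sirt3, the last 2 mitochondrial, followed with log2 fold changes of 0.25, 0.23 and 0.15. None of the 7 was called with the block.

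The corepressor complexes that hold Hdac1, Hdac2 and Hdac3 were represented by 41 genes, of which 40 were tested. Of these, 16 had higher and 24 lower values, with a median of -0.02 (0.06 with library size alone) beside -0.01 over all genes. The smallest p-values were those of the NuRD helicases Chd5 and Chd3, the MiDAC subunit Dnttip1 and the Sin3 subunit Sap130, with log2 fold changes of -0.25, -0.25, -0.27 and -0.20 and adjusted p-values of 0.50, 0.512, 0.558 and 0.609 by edgeR QL. With the block 0 of 40 were called, and with the block and without culture 1, 3 of 40 were, Chd5 and Gatad2b lower and Cdk2ap1 higher, beside 8.49% of all genes in that fit. Gatad2b and Cdk2ap1 are named here after their values were seen.

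Among 12 histone acetyltransferases, which add the group that deacetylases remove, 9 were lower and the median difference was -0.09 (log2). Ncoa1, Kat2b, Kat2a and Crebbp had the smallest p-values, with log2 fold changes of -0.21, 0.19, -0.16 and -0.18, and the groups did not overlap for Kat2b, higher with 10HDA, and for Kat7, lower with a log2 fold change of -0.06 and named here after its values were seen. Such groups were seen for 5.96% of all genes with 10HDA higher and for 7.44% with 10HDA lower. Genes whose proteins read acetylated lysines stood at a median of -0.10, with 14 of 15 tested and 11 of them lower. Brd2, a bromodomain protein of the BET family, had 353, 339 and 416 CPM with vehicle and 309.5, 293 and 336 CPM with 10HDA. Its groups did not overlap, and its log2 fold change was -0.24 (SE 0.11, edgeR QL adjusted p = 0.498). Atad2, Bptf and Baz2b followed with 0.25, -0.22 and -0.17, and the groups of Atad2 did not overlap either. With the block and without culture 1, 1 of the 12 acetyltransferases (Kat6a) and 1 of the 14 readers (Bptf) were called, both lower, where 8.49% of all genes were called.

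The partners and kinases of class IIa enzymes differed most from the family itself. Of 25 genes 21 were tested, 18 had lower values with 10HDA, and the median log2 fold change was -0.16 (-0.08 with library size alone). Ywhah, the 14-3-3 protein eta, had 236, 207 and 244 CPM with vehicle and 169, 152 and 182 CPM with 10HDA. All values with 10HDA were below all with vehicle, which held for 7.44% of all genes tested, and the log2 fold change was -0.45 (SE 0.11, edgeR QL adjusted p = 0.153, and 0.00299 with the block). Camk2a, a calcium/calmodulin-dependent kinase of excitatory neurons, had 189, 192 and 242 CPM with vehicle and 148, 158 and 154 CPM with 10HDA. It too did not overlap, with a log2 fold change of -0.44 (SE 0.11, edgeR QL adjusted p = 0.191, and 0.00695 with the block). Camk4, a nuclear kinase that phosphorylates class IIa enzymes, had a log2 fold change of -0.48 (edgeR QL adjusted p = 0.354, and 0.00505 with the block). Camk2d followed with -0.27 (edgeR QL adjusted p = 0.449, and 0.12 with the block).

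With the block, 4 of these 21 genes were called, all lower, where 5.08% of all genes were lower. Beside Ywhah, Camk2a and Camk4 the fourth was Mef2c, a transcription factor that class IIa enzymes repress, named after its values were seen, with 603, 728 and 877 CPM with vehicle and 560, 524 and 713 CPM with 10HDA. Its log2 fold change was -0.30 (edgeR QL adjusted p = 0.530), and -0.29 with the block (edgeR QL adjusted p = 0.0744). The same 4 genes were called with the block and without culture 1. Several of them are strongly expressed in neurons, and the summed neuronal markers were lower with 10HDA in every culture pair, without overlap. Of the 12 neuronal markers 11 had lower values, 0 were called without and 4 with the block, and the median was -0.21. The part of the neuronal markers in these results was not tested.

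Of 7 partners and substrates of Hdac6, 6 had lower values, with a median of -0.10. Hsp90ab1, a chaperone of the Hsp90 family that Hdac6 is known to deacetylate, had 2083, 1737 and 2082 CPM with vehicle and 1560.4, 1528 and 1714 CPM with 10HDA. The groups did not overlap, which held with 10HDA lower for 7.44% of all genes tested. The log2 fold change was -0.30 (SE 0.12, edgeR QL adjusted p = 0.446, and 0.0712 with the block). Hsp90ab1 was not called with the block and without culture 1. Cttn and Tuba1a, which encode the substrates cortactin and alpha-tubulin, had -0.13 and -0.18, and Atat1, the tubulin acetyltransferase, -0.10.

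Of 10 genes often raised by deacetylase inhibitors, 5 were tested and the median was 0.06. Cdkn1a, the cell cycle inhibitor p21, had 50.8, 43.9 and 48.5 CPM with vehicle and 55.6, 53.5 and 55.8 CPM with 10HDA. Its groups did not overlap, which held with 10HDA higher for 5.96% of all genes tested. The log2 fold change of Cdkn1a was 0.20 (SE 0.10, edgeR QL adjusted p = 0.529, and 0.25 with the block). Hspa1b, an inducible heat shock protein, had 14.4, 10.9 and 12.7 CPM with vehicle and 18.8, 13.3 and 18.6 CPM with 10HDA. It was higher in each culture, with a log2 fold change of 0.42 (SE 0.17, edgeR QL adjusted p = 0.454, and 0.0737 with the block), and it was not called with the block and without culture 1. H1f0, the linker histone H1.0, had 0.05 and Gsn, the actin-severing protein gelsolin, -0.24. The remaining 5, Hspa1a, Bdnf, Gdnf, Klf4 and Cdkn1c, were below the filter. In this order their means with vehicle were 1.75, 6.94, 0.369, 2.10 and 5.08 CPM. With 10HDA they were 2.65, 8.08, 0.314, 1.56 and 7.24 CPM. Only the groups of Klf4 did not overlap, with 10HDA lower, which held for 7.44% of all genes tested. With the filter of 1 CPM, 9 of the 10 genes were tested and 0 were called, where 0.509% of all genes were.

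The median of the astrocyte markers lay farther from 0 than that of any of these lists. Of 12 astrocyte markers 10 were tested, all 10 had lower values, and 5 were called lower without a culture term, where 0.428% of all genes were, with a median of -0.62. Of 8 tested oligodendrocyte lineage markers 1 was called, lower, with a median of -0.17, and the 10 tested genes of radial glia and dividing cells had a median of 0.09 with 0 called. Of the endothelial, pericyte and fibroblast markers only Pdgfrb passed the filter, with a log2 fold change of -1.07 (edgeR QL adjusted p = 0.043), and Cldn5 and Cdh5 had at most 3 counts in every library. Tmem119 of the microglial list was at 0. Whether the cell composition had a part in the levels of the deacetylase genes was not tested.

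Over the 6 libraries, the gene whose log2 CPM followed that of each tested member most closely was named as a description, with Pearson's r over libraries that share cultures and treatments. For Hdac2 it was Ap1s2 (r = 0.996), for Hdac5 AI987944 (r = 0.998), for Hdac9 Riok1 (r = 0.994) and for Hdac1 Gm7027 (r = 0.993). For Hdac4 it was Lrrc14 (r = 0.991), for Hdac11 Igfbp4 (r = 0.990), for Hdac7 Slc19a1 (r = 0.989), for Hdac6 Wbp2 (r = 0.985) and for Hdac3 Gpd1 (r = 0.984). With 6 libraries such values arise for many genes, and 6 to 83 genes per member had an r over 0.95.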

How the data were processed

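RNA was measured in 3 vehicle and 3 10HDA libraries, 1 of each treatment from cultures 1, 3 and 4. Per the methods of the paper and the labels, the authors mapped untrimmed 50-base single-end reads to mm10 (GRCm38) using Subjunc from Subread 1.4.4, and featureCounts assigned them to Gencode genes. What they deposited are these gene counts, neither normalized nor filtered. No row without a gene name was among the 43346 genes, and 98.0% of identifiers had a symbol in GENCODE M21 (GRCm38), which also gave coordinates. The members and all gene lists were chosen with earlier results of these data known.

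The 10520 genes reaching 10 CPM in 3 or more libraries were TMM-scaled. The 2 treatments were tested by the quasi-likelihood F-test of edgeR 4.0.16 (glmQLFTest in R 4.3.3, treatment only, as the methods name no culture term), with Benjamini-Hochberg adjustment over all genes tested and a threshold of 0.1. An SE is the log2 fold change over the root of F. Limits from 3 counts cover counting error only. Log2 ratios within a culture were taken from the scaled CPM of the members with nothing added. For the shares over all genes, 0.5 CPM was added to both values, which leaves the direction unchanged. Likeness between genes used log2 CPM with a prior count of 2. Named were all members, Hdac10, the genes past the threshold or otherwise the 4 with the smallest p of each list around the family, the most similar gene of each tested member, and near copies and antisense genes. The 6 marker lists (neurons, astrocytes, radial glia and dividing cells, oligodendrocyte lineage, microglia, and endothelium, pericytes and fibroblasts) were summed and counted only. Since 3 against 3 libraries allow no exact permutation p under 0.1, that test was not run.

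The labels place the libraries in cultures, which pairs them. As a check, deviations from the treatment means correlated across genes at 0.37, 0.24 and 0.62 within cultures 1, 3 and 4, and at -0.45 to 0.18 between cultures. Deviations of a gene from its treatment mean cancel over the 3 libraries, so positive values within cultures push those between cultures down. Genes are not independent replicates.

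Copies and shared 50-base stretches were sought in GENCODE M21 transcripts with Biopython 1.88. Alternatives were DESeq2 1.42.0 (size factors and test), upper quartile scaling, library size alone, limma-voom (limma 3.58.1), a filter of 1 CPM, no filter, culture as a block, a threshold of 0.05, leaving out each library and each culture, and, added after the data were seen, the counts of Gm10093 added to Hdac1. With the block, culture 1 was the only culture left out, and that fit had fewer libraries from which to estimate the spread. The scripts were tested on simulated data.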

Additional observations from a re-analysis of the deposited data

How the results depend on the processing

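No member was past the threshold in any alternative but those with culture as a replicate block: 1 of 9, Hdac9, was called with the replicate block and with the replicate block and Gm10093 counts added to Hdac1, and 0 with the replicate block and without culture 1. Hdac9 kept its direction in 21 of 21 alternatives, from 0.17 to 0.59, and so did Hdac1 (0.08 to 0.31), Hdac4 (0.12 to 0.25), Hdac5 (0.10 to 0.20), Hdac7 (0.02 to 0.36), Hdac6 (-0.24 to -0.08) and Hdac11 (-0.31 to -0.11), but the sizes moved by over 1.5 times in each. Library size alone gave 0.20 for Hdac5, -0.08 for Hdac6 and -0.11 for Hdac11. Hdac8 was 0.36 without a filter as well.

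Values of Hdac2 and Hdac3, near 0, turned to the other sign: with library size alone (0.042 and 0.058), with the replicate block and without culture 1 (0.0061 and 0.057), with upper quartile scaling (0.011, Hdac3) and without single libraries or cultures, where Hdac2 ran from -0.097 to 0.036 and Hdac3 from -0.14 to 0.073. Hdac2 turned without the vehicle library of culture 1 or 3, the 10HDA library of culture 3, culture 1 or culture 3, and Hdac3 without the vehicle library of culture 1 or 4, the 10HDA library of culture 4, culture 1 or culture 4. The cause was not tested.

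The number of all genes called, 66, was 170 with the DESeq2 test, 636 without a filter, 945 with the replicate block, 945 with Gm10093 counts added as well, 869 with the block and without culture 1, and 43 at a threshold of 0.05. Without single libraries or cultures it ran from 0 to 355: for cultures 1, 3 and 4 it was 101, 2 and 10 without the vehicle library, 0, 27 and 355 without the 10HDA library, and 2, 0 and 35 without both.

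Of the lists, class IIa partners and kinases had 0 genes called, but 2 with the DESeq2 test (Ywhah and Camk2a), 3 without a filter, 4 with each replicate block and 0 to 2 without single libraries (Ywhah and Camk4 without the 10HDA library of culture 4, Camk4 without the vehicle library of culture 1). Corepressor complexes had 1 without a filter (Sinhcaf, higher) and 3 with the block and without culture 1, where acetyltransferases and acetyl-lysine readers had 1 each. Hdac6 partners and the list raised by inhibitors had 1 each with the block, and 0 without culture 1.

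Hdac8 rests on 59 to 109 counts per library. Of the read-length stretches of the protein-coding Hdac1 transcripts, 56.4% also occur in Gm10093. Reads from these shared stretches cannot be assigned to either gene by their sequence, and how they were counted was not given in the sources used here.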
